A study of Mus musculus with 9 samples.

Results

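Canonical Wnt signalling raises the transcription of several of its own regulators, and 10 such feedback and target genes were followed here through 9 mouse mammary tumours: Axin2, Nkd1, Nkd2, Notum, Rnf43, Znrf3, Lgr5, Lgr6, Tcf7 and Lef1. They were taken by symbol and all 10 were found among the 18484 genes counted. Every tumour came from a BlgCre-NeuKI mouse, in which the beta-lactoglobulin promoter drives Cre mainly in luminal ER- mammary cells, and Cre releases an activated rat Neu cDNA knocked into the endogenous Erbb2 locus behind a floxed STOP cassette. Both alleles were carried as 1 copy on a mixed FVB and C57Bl6 background, and the ages of the mice are not among the labels. RNA-seq libraries, 1 from each snap-frozen tumour, fell into 4 groups: 5 adenocarcinomas of no special type, AC(NST), with high amplification of the Erbb2/Neu locus, 1 AC(NST) without or with low amplification (not/low), 2 metaplastic adenosquamous carcinomas (ASQC), both not/low-amplified, and 1 not/low-amplified mammary sarcoma.

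Virgin mice gave the high-amplified AC(NST) tumours MS1213.1, MS1163.1 and MS1163.2, and parous mice gave MS1155.3 and MS1218.2. The ASQC tumours MS1210.1 and MS1349.1, the not/low AC(NST) tumour MS1166.1 and the sarcoma MS1156.1 were all from parous mice. Amplification, histotype and parity therefore cannot be fully told apart in these tumours, and the labels name no sequencing batch. MS1163.1 and MS1163.2 bear the same mouse number. The study's text gives a tumour purity below that of the other tumours for MS1218.2, and amplification results that differed between assays for MS1213.1 and MS1218.2. Totals of 12501225 to 23912429 counts on genes were obtained per library, the ASQC libraries being the deepest. Erbb2 itself lay between 5284 and 105019 normalized counts in the high-amplified tumours and between 1532 and 2783 in the 3 not/low-amplified epithelial tumours, so that no library went against its amplification label on this gene. A normalized count is the number of reads on a gene divided by the size factor of its library.

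In canonical Wnt signalling, a Wnt ligand bound to Frizzled and LRP5/6 receptors stops the destruction complex from degrading beta-catenin, which then joins TCF/LEF proteins on DNA and raises the transcription of target genes. Many targets encode brakes: Axin2 is a scaffold of the destruction complex, Nkd1 and Nkd2 bind Dishevelled, Notum removes the lipid that Wnt ligands need, and Rnf43 and Znrf3 are ubiquitin ligases that clear Frizzled from the cell surface. Lgr5 and Lgr6 are receptors for R-spondins, which in turn switch Rnf43 and Znrf3 off, while Tcf7 and Lef1 are themselves TCF/LEF factors. In the skin some of these genes, such as Lgr5, Lgr6 and Lef1, are known from the hair follicle. Some are also known in the mammary gland from basal and stem cell populations.

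Promoter windows, from 250 bases before to 50 bases after a RefSeq start on build GRCm38.p6, were matched by symbol for 7 of the 10 genes, 12 windows in all. The windows below are shown because Axin2 is the gene on which the results turn, and because Lef1 has an upstream start and an internal start whose windows differ in TCF/LEF motifs. The motifs searched were the cores CTTTGA and CTTTGT on both strands, also read as TCAAAG and ACAAAG, and matches are in capitals. All 3 windows lie on the plus strand.
Axin2, chr11:108920099-108920398: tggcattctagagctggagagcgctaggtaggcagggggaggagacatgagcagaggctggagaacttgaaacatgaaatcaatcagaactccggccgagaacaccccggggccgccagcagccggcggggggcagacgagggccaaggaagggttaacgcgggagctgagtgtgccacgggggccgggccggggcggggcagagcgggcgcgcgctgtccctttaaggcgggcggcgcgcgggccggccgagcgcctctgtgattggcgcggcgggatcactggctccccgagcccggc
Lef1 upstream start, chr3:131110047-131110346: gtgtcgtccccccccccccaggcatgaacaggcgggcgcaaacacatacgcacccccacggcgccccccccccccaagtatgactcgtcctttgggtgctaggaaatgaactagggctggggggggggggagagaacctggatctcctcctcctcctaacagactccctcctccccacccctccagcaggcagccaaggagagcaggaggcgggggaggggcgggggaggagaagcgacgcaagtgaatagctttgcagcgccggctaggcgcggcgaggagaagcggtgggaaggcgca
Lef1 internal start, chr3:131156044-131156343: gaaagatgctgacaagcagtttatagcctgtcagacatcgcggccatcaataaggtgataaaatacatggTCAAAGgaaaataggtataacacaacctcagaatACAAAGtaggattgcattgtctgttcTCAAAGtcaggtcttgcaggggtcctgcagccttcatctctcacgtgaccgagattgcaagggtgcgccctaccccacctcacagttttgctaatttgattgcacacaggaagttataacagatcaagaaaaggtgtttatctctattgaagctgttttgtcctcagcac
The internal Lef1 window held 3 cores, TCAAAG at 180 and 120 bases and ACAAAG at 146 bases before the start. None was found in the other 11 windows, those of Axin2, Lgr6, Tcf7, Nkd1, Nkd2, Rnf43 and the other Lef1 starts. Over all 32851 windows in the table, 16% held CTTTGA, 18.7% held CTTTGT and 31.2% held either. The 12 windows differed in base content, from 43.7% G and C in the internal Lef1 window to 76.3% in a Tcf7 window. These shares were not matched for base content, and sequence outside the windows was not searched. Reads were counted per gene, so the counts do not tell the Lef1 starts apart.

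Axin2 (ENSMUSG00000000142, chromosome 11, 108920349 to 108950783, plus strand; here and below the whole gene, GENCODE M21 on GRCm38) differed most clearly between the tumours. It reached 4341 normalized counts in the ASQC tumour MS1210.1 and 5250 in the ASQC tumour MS1349.1, and 328 in the not/low AC(NST) tumour MS1166.1. The high-amplified AC(NST) tumours gave 61.8 in MS1155.3, 121 in MS1218.2, 138 in MS1163.2, 43 in MS1163.1 and 158 in MS1213.1. The 3 groups did not overlap: the lower ASQC value was 13.2 times the highest AC(NST) value, and all 3 not/low-amplified tumours lay above all 5 high-amplified tumours. The mean was 4796 ± 643 (SD, n = 2) in ASQC and 104 ± 49.6 (SD, n = 5) in high AC(NST). Axin2 was 5.52 higher in ASQC than in high AC(NST) on the log2 scale (SE 0.48; edgeR quasi-likelihood test, Benjamini-Hochberg adjusted p = 0.00352). As the tissue was sequenced in bulk, more RNA per cell and more cells of a type that expresses the gene cannot be told apart, for Axin2 or for any gene below.

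Across all genes, 101 of the 14007 tested were called in this comparison, 0.721%, a call being an adjusted p under 0.05 with a log2 fold change beyond 1. Axin2 was the 1 called gene among the 9 feedback and target genes that passed the filter, which asked for 10 counts or more in 3 or more epithelial tumours. With DESeq2 in place of edgeR the calls included Axin2, Nkd1, Nkd2, Notum, Lgr5, Lgr6 and Tcf7, 7 of the 10, against 1119 genes in all, 7.27% of those given an adjusted p. The call of Axin2 was retained without any single tumour (adjusted p 0.00435 to 0.0189) and was lost among parous tumours alone (log2 fold change 5.66, adjusted p = 0.159), where no gene was called.

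**Figure D1:**
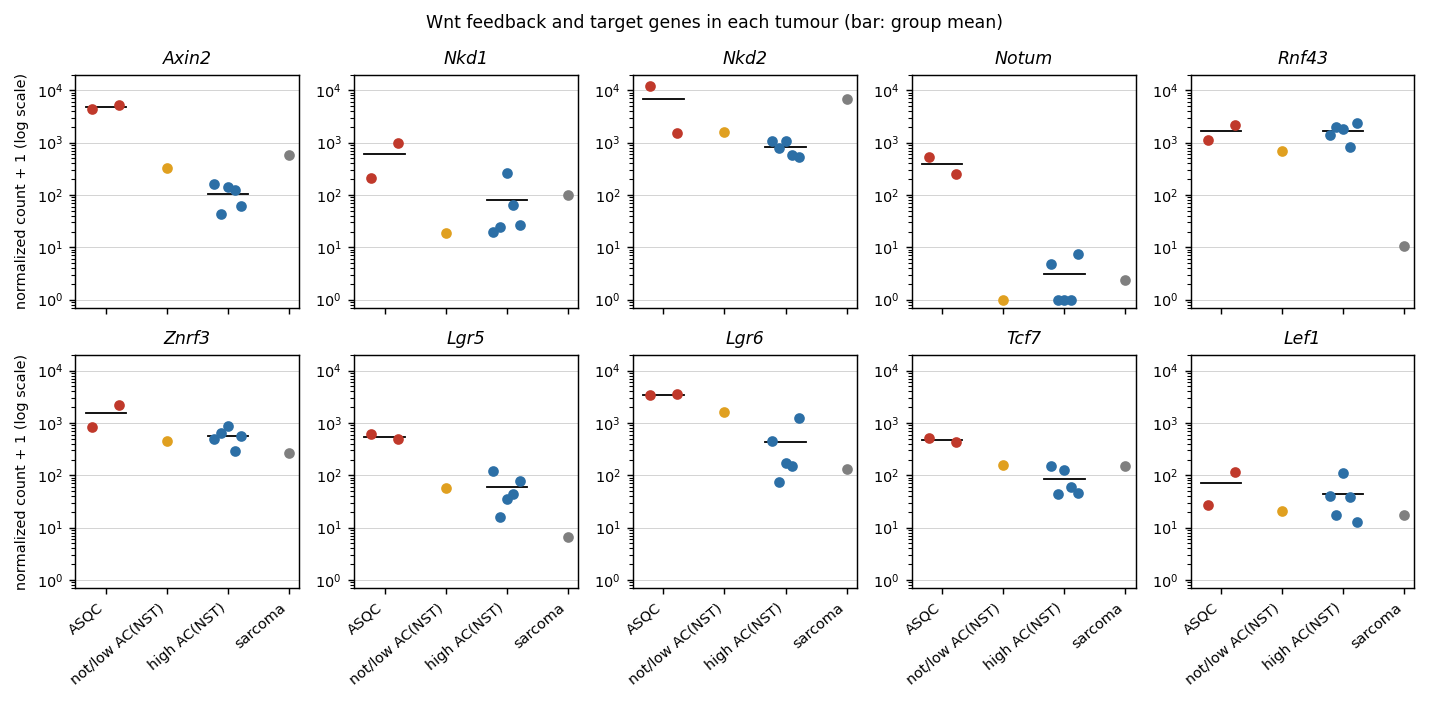
Normalized count + 1 (log scale) of the 10 genes in each of the 9 tumours, 1 point per tumour, by group; bars are the means of the ASQC (n = 2) and high AC(NST) (n = 5) groups. Both ASQC points lie above every AC(NST) point for Axin2, Notum, Lgr5, Lgr6 and Tcf7, while the groups overlap for Rnf43, Znrf3 and Lef1.

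With amplification as the comparison, 5 high-amplified against 3 not/low-amplified epithelial tumours, Axin2 was again the 1 gene of the 9 called, and fell by 4.98 on the log2 scale in high-amplified tumours (SE 0.78, edgeR adjusted p = 0.0296). Of all genes tested, 129 or 0.921% were called. This call rested on each of several tumours: the adjusted p was 0.0593 without MS1213.1, 0.0731 without MS1163.1, 0.0721 without MS1163.2, 0.0674 without MS1155.3, 0.0808 without MS1210.1 and 0.0681 without MS1349.1, with log2 fold changes between -5.18 and -4.47. It was retained without MS1218.2 and without MS1166.1. DESeq2 called Lgr5 and Tcf7 beside Axin2, among 1587 genes in all or 10.4% of those given an adjusted p, and gave Lgr6 and Nkd2 none. The 2 tumours of the same mouse taken as 1 gave Axin2 an adjusted p of 0.0654, and parity as a covariate gave 0.185.

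Nkd2 (ENSMUSG00000021567, chromosome 13, 73818534 to 73847631, minus strand), the Dishevelled-binding antagonist, was set apart by 1 ASQC tumour. It gave 11840 normalized counts in MS1210.1 but 1509 in MS1349.1, a 7.85-fold difference between the ASQC tumours, and 1602 in MS1166.1. The high-amplified tumours gave 528 in MS1155.3, 579 in MS1218.2, 1087 in MS1163.2, 781 in MS1163.1 and 1070 in MS1213.1. All 3 not/low-amplified tumours lay above the high-amplified range, though MS1349.1 was below MS1166.1. The log2 difference between ASQC and high AC(NST) was 3.04 (95% confidence interval 1.65 to 4.43; edgeR adjusted p = 0.0722), 3.86 without MS1349.1 (adjusted p = 0.024) and 0.87 without MS1210.1 (adjusted p = 0.792).

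Its paralogue Nkd1 (ENSMUSG00000031661, chromosome 8, 88521354 to 88594884, plus strand) was highest in the other ASQC tumour, with 209 normalized counts in MS1210.1 and 997 in MS1349.1. MS1166.1 had the lowest epithelial value, 17.8. Among the high-amplified tumours, MS1163.2 stood above the others with 263, against 25.8 in MS1155.3, 63.9 in MS1218.2, 23.1 in MS1163.1 and 18.3 in MS1213.1. The groups thus overlapped, MS1163.2 lying above the ASQC tumour MS1210.1. The log2 difference between ASQC and high AC(NST) was 2.96 (95% confidence interval 0.68 to 5.23; edgeR adjusted p = 0.21), 1.41 without MS1349.1 (adjusted p = 0.81) and 4.19 without MS1163.2 (adjusted p = 0.0875).

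Notum (ENSMUSG00000042988, chromosome 11, 120653788 to 120661175, minus strand), the secreted Wnt deacylase, was close to absent outside ASQC. It had 767 counts (539 normalized) in MS1210.1 and 342 counts (250 normalized) in MS1349.1. No count was found in MS1166.1, MS1163.1, MS1163.2 or MS1218.2, where up to 3 counts, or 2.78 to 3.73 normalized counts by library, would be allowed by counting error alone. MS1213.1 held 4 counts and MS1155.3 held 5. The ASQC mean, 395 ± 205 normalized counts (SD, n = 2), was 192 times the high AC(NST) mean of 2.06 ± 2.96 (SD, n = 5), and at least 111-fold higher than in MS1166.1, whose value was set at 3 counts. Only the 2 ASQC tumours reached 10 counts, so Notum failed the filter and was not tested with the other 9 genes.

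For the ubiquitin ligases Rnf43 and Znrf3 the groups overlapped. Rnf43 (ENSMUSG00000034177, chromosome 11, 87662722 to 87735539, plus strand) gave 2183 normalized counts in MS1349.1, 1141 in MS1210.1 and 698 in MS1166.1. In the high-amplified tumours it gave 2347 in MS1155.3, 831 in MS1218.2, 1847 in MS1163.2, 1956 in MS1163.1 and 1425 in MS1213.1. The ASQC values lay inside this range and MS1166.1 just below it. The log2 difference of Rnf43 between ASQC and high AC(NST) was -0.01, with a 95% confidence interval of -0.99 to 0.96 (edgeR adjusted p = 0.99). It took either sign among the alternatives tried.

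Znrf3 (ENSMUSG00000041961, chromosome 11, 5276324 to 5444847, minus strand) gave 2228 normalized counts in MS1349.1, 851 in MS1210.1 and 445 in MS1166.1. The high-amplified tumours spanned 295 in MS1218.2 to 885 in MS1163.2, with 565 in MS1155.3, 629 in MS1163.1 and 489 in MS1213.1. MS1349.1 alone stood above this range. The difference between ASQC and high AC(NST) was 1.43 on the log2 scale (95% confidence interval 0.40 to 2.46; edgeR adjusted p = 0.184), and 0.57 without MS1349.1.

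Both R-spondin receptors among the 10 genes were higher in each ASQC tumour than in each AC(NST) tumour, without passing the test. Lgr5 (ENSMUSG00000020140, chromosome 10, 115450311 to 115587780, minus strand) gave 496 normalized counts in MS1349.1, 601 in MS1210.1 and 57.1 in MS1166.1. The high-amplified tumours gave 77.3 in MS1155.3, 42.6 in MS1218.2, 33.6 in MS1163.2, 14.7 in MS1163.1 and 120 in MS1213.1. MS1166.1 sat in the middle of that range, and the lower ASQC value was 4.12 times the highest AC(NST) value. The log2 difference between ASQC and high AC(NST) was 3.24 (95% confidence interval 1.77 to 4.70; edgeR adjusted p = 0.0695), with an adjusted p of 0.0498 without MS1218.2. A gene annotated on the other strand within the Lgr5 locus, A930009A15Rik, had at most 1 count in any library.

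Lgr6 (ENSMUSG00000042793, chromosome 1, 134983301 to 135105276, minus strand) gave 3528 normalized counts in MS1349.1, 3421 in MS1210.1 and 1619 in MS1166.1. Among high-amplified tumours it ranged from 72.4 in MS1163.1 to 1262 in MS1155.3, a 17.4-fold range and the widest of the 9 tested genes, with 170 in MS1163.2, 150 in MS1218.2 and 458 in MS1213.1. All 3 not/low-amplified tumours lay above all 5 high-amplified ones, MS1166.1 by 1.28 times the value of MS1155.3. The difference between ASQC and high AC(NST) was 3.03 (log2; 95% confidence interval 1.04 to 5.03; edgeR adjusted p = 0.16), and 4.02 without MS1155.3 (adjusted p = 0.0478).

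The 2 TCF/LEF factors parted. Tcf7 (ENSMUSG00000000782, chromosome 11, 52252371 to 52283014, minus strand) gave 425 normalized counts in MS1349.1, 505 in MS1210.1 and 158 in MS1166.1, against 45.1 in MS1155.3, 59.2 in MS1218.2, 124 in MS1163.2, 43 in MS1163.1 and 152 in MS1213.1. The not/low-amplified tumours again lay above the high-amplified ones, MS1166.1 by only 1.04 times the value of MS1213.1. The log2 difference of Tcf7 between ASQC and high AC(NST) was 2.45 (95% confidence interval 1.25 to 3.65; edgeR adjusted p = 0.083).

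Lef1 (ENSMUSG00000027985, chromosome 3, 131110471 to 131224356, plus strand) gave 115 normalized counts in MS1349.1, 26 in MS1210.1 and 20.2 in MS1166.1. In the high-amplified tumours it gave 11.6 in MS1155.3, 37 in MS1218.2, 108 in MS1163.2, 16.8 in MS1163.1 and 38.5 in MS1213.1. One ASQC tumour and one high-amplified tumour shared the top of the range, and the difference between ASQC and high AC(NST) was 0.75 (log2; 95% confidence interval -1.28 to 2.78; edgeR adjusted p = 0.71), or -0.70 without MS1349.1.

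**Figure D2:**
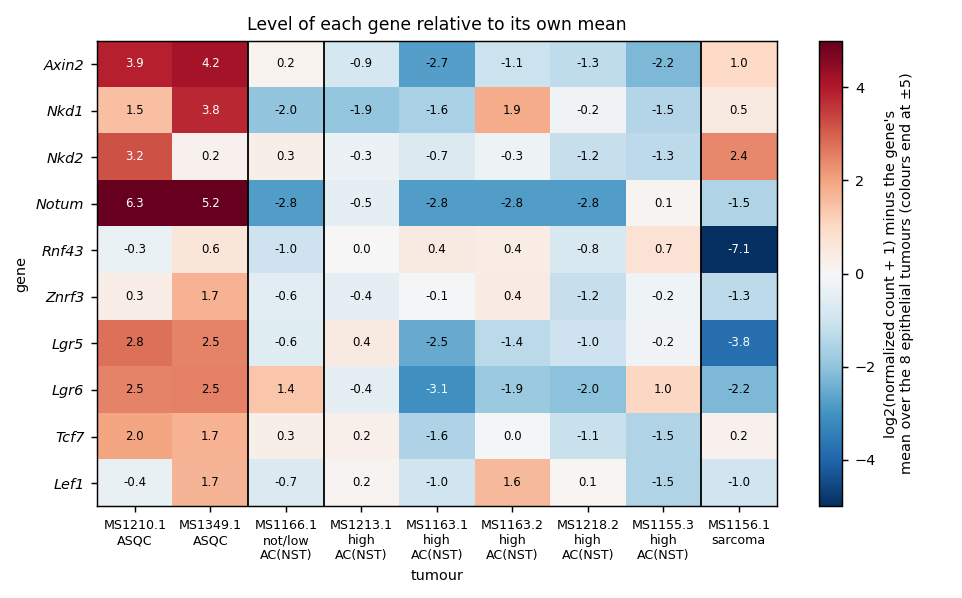
Each cell is log2(normalized count + 1) of a gene (rows) in a tumour (columns) minus the mean of that gene over the 8 epithelial tumours; colours end at 5 in either direction and the sarcoma is set against the same means. The 2 ASQC columns are positive for Axin2, Notum, Lgr5, Lgr6 and Tcf7 together, whereas Nkd2 is high in MS1210.1 and Nkd1, Znrf3 and Lef1 are high in MS1349.1.

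The ASQC tumours shared part of the pattern and differed in the rest. Their values differed by 1.03-fold for Lgr6, 1.19-fold for Tcf7, 1.21-fold for Axin2 and for Lgr5, 1.91-fold for Rnf43, 2.16-fold for Notum, 2.62-fold for Znrf3, 4.44-fold for Lef1, 4.77-fold for Nkd1 and 7.85-fold for Nkd2. In total 9 of the 10 genes had their highest value of the 9 tumours in an ASQC tumour, 4 in MS1210.1 and 5 in MS1349.1, Rnf43 being the exception. These 9 include Notum, which reached 10 counts in the ASQC tumours only. The share of all genes with their highest value in an ASQC tumour was not counted. For 5 of the 10 genes (Axin2, Notum, Lgr5, Lgr6 and Tcf7) both ASQC tumours lay above every AC(NST) tumour. Among the 9 that passed the filter this held for 4, and over all tested genes for 5.3%. These counts describe a set of genes whose values are not independent of each other.

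The median log2 difference between ASQC and high AC(NST) was 2.96 over the 9 tested genes, from -0.01 for Rnf43 to 5.52 for Axin2, beside a median of -0.05 over all 14007 genes. An unadjusted p under 0.05 was reached by 7 of the 9, and by 16.2% of all genes tested. Each of these 9 genes had 10 counts or more in 7 or 8 epithelial tumours, so their entry did not depend on the group in which they were high.

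The not/low AC(NST) tumour MS1166.1 separates low amplification from the ASQC histotype, but it is a single tumour, and its spread was assumed to be that of the other groups. It lay above every high-amplified tumour for 4 genes (Axin2, Nkd2, Lgr6 and Tcf7). It lay inside their range for 4 (Lgr5, Znrf3, Lef1 and Notum) and below it for 2 (Nkd1 and Rnf43). For Notum this was a tie at 0 counts with MS1163.1, MS1163.2 and MS1218.2, below which no tumour could lie. The shares of all genes above, inside or below that range in MS1166.1 were not counted. Whether these numbers of genes are unusual for this tumour is therefore not known. Axin2 was 3.14 times the high AC(NST) mean, a log2 difference of 1.60 (95% confidence interval 0.30 to 2.91; edgeR adjusted p = 0.167). Lgr6 was 3.83 times that mean (log2 1.89, 95% confidence interval -0.58 to 4.35; adjusted p = 0.334). None of the 9 genes was called between MS1166.1 and the high-amplified tumours by edgeR or DESeq2, and Axin2 alone had an unadjusted p under 0.05, as did 21.6% of all genes tested. Among all genes 155, or 1.11%, were called by edgeR, and 1696, or 11.6% of those given an adjusted p, by DESeq2.

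Set directly against MS1166.1, the ASQC tumours gave a positive log2 difference for each of the 9 genes, with a median of 1.85 beside 0.05 over all genes. The largest were Nkd1 at 5.12 (95% confidence interval 0.32 to 9.91; edgeR adjusted p = 0.428) and Axin2 at 3.91 (95% confidence interval 1.93 to 5.90; adjusted p = 0.203). Lgr5 stood at 3.30 (95% confidence interval 0.57 to 6.04; adjusted p = 0.374) and Lgr6 at 1.15 (95% confidence interval -2.14 to 4.43; adjusted p = 0.848). By edgeR 0 of 14007 genes (0%) were called with 2 tumours against 1, with 1527 at an unadjusted p under 0.05, while DESeq2 called 660 (4.39% of those given an adjusted p), among them Axin2, Lgr5 and Nkd1. These 3 comparisons reuse the same tumours as their controls and are not independent of one another.

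**Figure D3:**
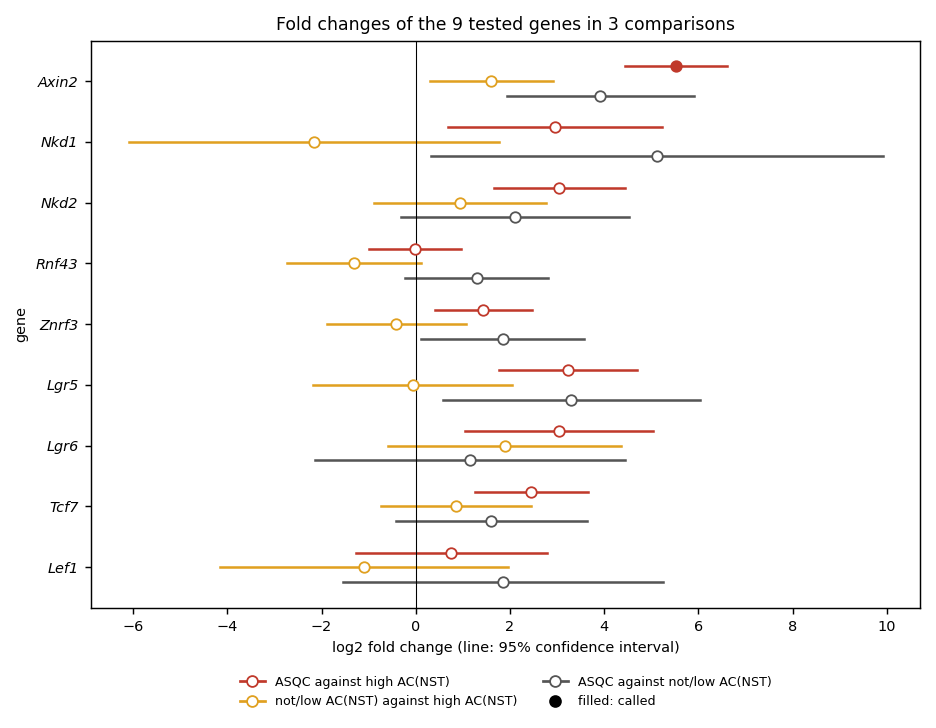
Log2 fold changes (points) with 95% confidence intervals (lines) of the 9 tested genes in 3 comparisons of ASQC (n = 2), not/low AC(NST) (n = 1) and high AC(NST) (n = 5) from a single edgeR fit; a filled point is a called gene. Only Axin2 in ASQC against high AC(NST) is filled, and the intervals against the single tumour MS1166.1 are the widest for Nkd1, at 0.32 to 9.91.

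Across the amplification groups as a whole, 4 of the 10 genes (Axin2, Nkd2, Lgr6 and Tcf7) had all 3 not/low-amplified tumours above all 5 high-amplified tumours, as did 8.04% of all tested genes. Each of these 4 gave an exact permutation p of 0.0357 (two-sided, over the 56 divisions of 8 tumours into 5 and 3, not adjusted for the 10 genes), the smallest p this design allows. A gene with full separation always reaches this p, so it adds nothing to the separation by which the 4 were picked. With MS1163.1 and MS1163.2, which bear the same mouse number, averaged and taken as 1, each of the 4 gave 0.0571, the smallest exact permutation p of the 35 divisions into 4 and 3, so that no gene could then reach 0.05. Lgr5 gave an exact permutation p of 0.107 and Notum 0.214. The remaining genes gave exact permutation p-values of 0.321 for Znrf3, 0.393 for Nkd1 and for Rnf43, and 0.75 for Lef1.

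Within the high-amplified AC(NST) group the genes did not follow one order of tumours. MS1163.1 held the lowest value for Axin2, Lgr5, Lgr6 and Tcf7, and shared the zero of Notum. MS1163.2, which bears the same mouse number, held the highest for Nkd1, Nkd2, Znrf3 and Lef1. MS1155.3 was highest for Lgr6, Rnf43 and Notum and lowest for Nkd2 and Lef1. In fold terms the range was widest for Lgr6 (17.4), Nkd1 (14.4), Lef1 (9.33) and Lgr5 (8.19) and narrowest for Nkd2 (2.06), Rnf43 (2.82) and Znrf3 (3).

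Parity could be compared without a change of histotype or amplification label only inside this group, 2 parous against 3 virgin tumours. Of the virgin tumours, MS1163.1 and MS1163.2 bear the same mouse number, and they were not merged for this comparison. Amplification results differed between assays for the virgin tumour MS1213.1 and the parous tumour MS1218.2, and the study's text gives MS1218.2 a lower tumour purity. No member of the set was called, nor was any of 13949 genes by edgeR (0%), with 884 genes and none of the 9 members at an unadjusted p under 0.05, and 58 genes called by DESeq2 (0.376% of those given an adjusted p). The nearest was Nkd2, with a mean of 553 normalized counts in parous and 979 in virgin tumours (log2 -0.80, 95% confidence interval -1.63 to 0.04; edgeR adjusted p = 0.735). Axin2 averaged 91.5 in parous and 113 in virgin tumours (log2 -0.27, 95% confidence interval -1.91 to 1.37; adjusted p = 0.914). The 95% confidence interval was -2.06 to 2.25 for Lgr5, -3.91 to 1.68 for Nkd1 and -3.40 to 1.20 for Lef1 (log2).

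The genes also differed in abundance. Levels of different genes were compared as normalized counts per kilobase of exon. In ASQC, Nkd2 was the most abundant at 1383 ± 1514 (SD, n = 2), followed by Axin2 at 871 ± 117 and Lgr6 at 507 ± 11.1. The first place of Nkd2 rested on MS1210.1, where it reached 2453 per kilobase against 788 for Axin2; in MS1349.1 it was at 313, behind Axin2 at 954, Lgr6 at 515 and Rnf43 at 333. In the high AC(NST) tumours Rnf43 ranked first at 256 ± 88.1 (SD, n = 5) and Nkd2 second at 168 ± 54.7, whereas Axin2 ranked only sixth at 19 ± 9.02. MS1166.1 was led by Nkd2 at 332 and Lgr6 at 236, with Axin2 at 59.6. Lef1 was among the least abundant throughout, at 8.05 ± 7.19 in ASQC, 2.3 in MS1166.1 and 4.83 ± 4.4 in high AC(NST). The spreads of neighbours in these orders overlap in many cases, as for Nkd2 and Axin2 in ASQC.

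The sarcoma MS1156.1 had a profile of its own, given as values only. Nkd2 reached 6933 normalized counts and Axin2 587, both above every high-amplified tumour. Rnf43 was at 9.78 and Lgr5 at 5.59, both below all 8 epithelial tumours, as was Znrf3 at 271. Tcf7 was at 148, Lgr6 at 130, Nkd1 at 99.2, Lef1 at 16.8 and Notum at 1.4, a single count. Its luminal markers summed to 895 normalized counts, against 45548 to 147668 in the epithelial tumours.

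In sum, marker genes of squamous keratinocytes and of the hair follicle were higher in the ASQC group, while the basal mammary markers were split. Of 8 squamous keratinocyte markers with a single row, all 8 were above every AC(NST) tumour in both ASQC tumours; their sum was 5897 to 28344 in ASQC, 356 in MS1166.1 (Ivl, Lor and Dsc1 at 0) and 19.9 to 702 in high AC(NST) (Lor at 0). The 9 hair follicle markers summed to 4615 to 19756 in ASQC, 13.1 in MS1166.1 and 32.5 to 181 in high AC(NST), and 7 of them did not overlap; Hoxc13 was at 0 in MS1166.1 and in the high AC(NST) tumours. Basal mammary markers summed to 11801 to 57207 in ASQC, 7100 in MS1166.1 and 1226 to 13538 in high AC(NST), with 2 of 7 not overlapping. Between ASQC and high AC(NST) the log2 difference was 5.35 for Krt14, 2.70 for Krt5 and 2.45 for Trp63. It was 0.18 for Oxtr, -0.14 for Cnn1, -0.61 for Myh11 and -0.83 for Acta2, and none of the 7 was called. Luminal markers were present in every epithelial tumour, at 84278 to 96185 in ASQC, 147668 in MS1166.1 and 45548 to 67019 in high AC(NST), with all 7 markers detected in each group. Lgr5, Lgr6 and Lef1 are themselves known in the hair follicle, and the part of these cell types in the values of the 10 genes was not tested. Over all genes past the filter, 5.3% had both ASQC tumours above every AC(NST) tumour. The squamous markers Krt1, Ivl, Lor, Sprr1b and Dsc1 did not pass that filter. Nor did the hair follicle markers Hoxc13, Krt25, Krt27, Krt73 and Krt35, so the share does not cover genes like these.

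T cell markers, relevant since T cells express Tcf7 and Lef1, summed to 343 to 532 in ASQC, 187 in MS1166.1 (Cd2 and Cd8a at 0) and 80.8 to 397 in high AC(NST), with 1 of 10 markers not overlapping. Over all tested genes that share was 5.3%. Fibroblast markers were highest among epithelial tumours in MS1218.2, at 380384 normalized counts against 29692 to 115848 in the others, and endothelial markers were highest there too, at 13242 against 2117 to 5433. With MS1218.2 left out, Axin2 alone of the 10 genes was called for amplification, where calls over all genes went from 129 to 1255 (9.08%). Between ASQC and high AC(NST) Axin2 and Lgr5 were then called, where calls over all genes went from 101 to 807 (5.84%).

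The median of the other pathway genes lay near a difference of 0, though single genes spread widely. Of 55 further Wnt genes in 4 lists, 48 were tested between ASQC and high AC(NST), with a median log2 difference of 0.03 (-2.72 to 9.04). An unadjusted edgeR p under 0.05 was reached by 14 of the 48, beside 16.2% of all genes tested. Of the 48, 3 were called, all higher in ASQC, beside 0.721% of all genes tested. These 3 were listed as other canonical Wnt targets, where 14 of 18 genes were tested, with a median of 0.64. Of those tested targets, 7 had an unadjusted edgeR p under 0.05. The lists were chosen with earlier results of these data known. The study had already found Wif1 in the not/low-amplified tumours from these same libraries, so its call is not separate support. Wif1, a secreted antagonist that binds Wnt ligands, gave 1507 normalized counts in MS1210.1 and 931 in MS1349.1, against 4.76 in MS1166.1 and 0.963 to 21.1 in high AC(NST) (log2 7.16, SE 0.97, edgeR adjusted p = 0.0213). Apcdd1, a membrane-bound Wnt antagonist, gave 959 in MS1210.1 and 3312 in MS1349.1, against 66.6 in MS1166.1 and 53.5 to 301 in high AC(NST) (log2 4.17, SE 0.70, adjusted p = 0.0412). Mmp7, a matrix metalloproteinase, gave 257 in MS1210.1 and 4201 in MS1349.1, with no count in MS1166.1 and 0 to 16.4 normalized counts in high AC(NST) (log2 9.04, SE 1.37, adjusted p = 0.0288). These 3 calls also rested on single tumours: Wif1 was not called without MS1210.1 (adjusted p = 0.125) or without MS1349.1 (0.0659), and Mmp7 was not without MS1163.1 (0.0653), MS1163.2 (0.0788) or MS1155.3 (0.0547). Mmp7 reached 10 counts only in MS1213.1 and both ASQC tumours, so that without any of these 3 it failed the filter and was not tested. Apcdd1 was lost when any tumour but MS1218.2 or MS1166.1 was left out, at adjusted p-values up to 0.294 without MS1349.1. The direction was the same wherever they were tested.

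Upstream components were then examined. In the Wnt receptor complex and R-spondin list, 10 of 12 genes were tested and none called between ASQC and high AC(NST) (median 0.02, with 3 at an unadjusted p under 0.05, beside 16.2% of all genes). Lgr4, the third R-spondin receptor, gave 3219 normalized counts in MS1210.1, 11691 in MS1349.1 and 1633 to 2656 in high AC(NST) (log2 1.71, edgeR adjusted p = 0.129). The co-receptor Lrp6 gave 4242 and 4382 in ASQC, below the 6203 to 11806 of the high-amplified tumours (log2 -1.20, adjusted p = 0.18), and Porcn, the acyltransferase of Wnt ligands, had a log2 difference of 1.27 (adjusted p = 0.269).

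In the destruction complex list, 12 genes were tested and none called between ASQC and high AC(NST) (median -0.02, 2 at an unadjusted p under 0.05, or about the share of all genes). Frat2, which binds GSK3, gave 121 in MS1349.1, 89.3 in MS1210.1 and 316 in MS1166.1, against 11.6 to 30.4 in high AC(NST), so that all 3 not/low-amplified tumours lay above the others. It was called for amplification (log2 -2.92, SE 0.53, edgeR adjusted p = 0.0396) and between MS1166.1 and high AC(NST) (log2 3.76, SE 0.54, adjusted p = 0.0245), and was the 1 called gene of the 48 in each. Over all genes tested, 0.921% were called for amplification and 1.11% between MS1166.1 and high AC(NST). The second comparison sets a single tumour, whose spread was assumed to be that of the other groups, against 5. The amplification call of Frat2 was lost when any tumour but MS1218.2 was left out (adjusted p up to 0.101, without MS1166.1), and the other without MS1163.1 (0.0569), MS1155.3 (0.0663), MS1210.1 (0.0521) or MS1349.1 (0.0555), with the direction unchanged in all of these. The amplification call was also lost with the 2 tumours of the same mouse added together (adjusted p = 0.0832), with parity as a covariate (0.225), in parous tumours only (0.397) and with the sarcoma included (0.233). Apc differed by -0.58 between ASQC and high AC(NST) (adjusted p = 0.539) and Apc2 by -2.72 (adjusted p = 0.237). Ctnnb1, which encodes beta-catenin and was named after its values were seen, gave 73640 normalized counts in MS1166.1, 21488 and 21365 in ASQC and 13576 to 25184 in high AC(NST). Its log2 difference between MS1166.1 and high AC(NST) was 1.83 (adjusted p = 0.0953).

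Of the 12 nuclear cofactors tested none was called (median -0.34 between ASQC and high AC(NST), 2 at an unadjusted p under 0.05, again about the share of all genes). Bcl9l, a beta-catenin coactivator, gave 1254 and 1334 in ASQC, 2245 in MS1166.1 and 1923 to 3930 in high AC(NST) (log2 -1.24, edgeR adjusted p = 0.168). Tle2, of the Groucho corepressor family, gave 116 and 172 in ASQC, 60.7 in MS1166.1 and 261 to 1535 in high AC(NST) (log2 -2.27, adjusted p = 0.214). Pygo1 had a log2 difference of -1.81 (adjusted p = 0.329).

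**Figure D4:**
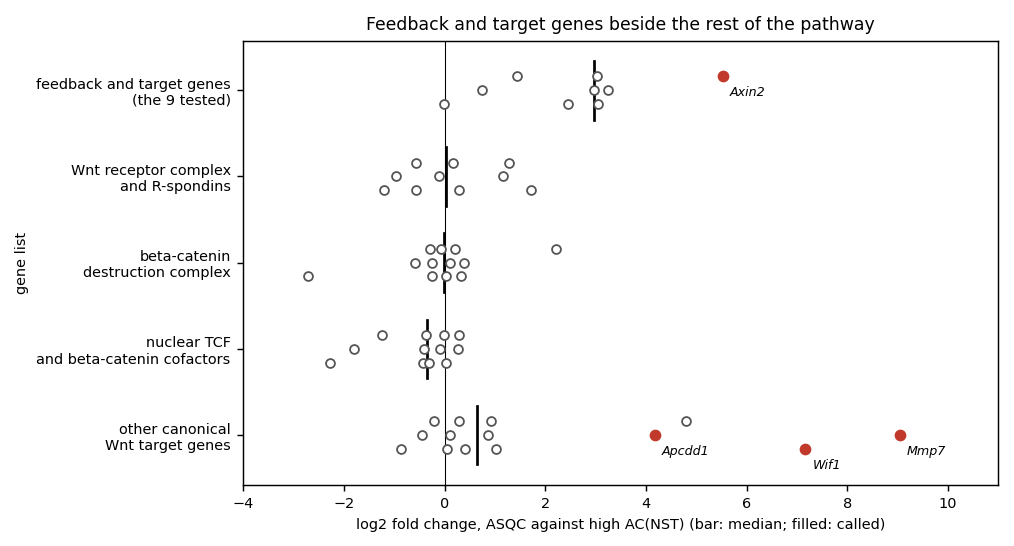
Log2 fold changes between ASQC (n = 2) and high AC(NST) (n = 5), 1 point per tested gene, for the 9 feedback and target genes and the 4 lists of other Wnt pathway genes; bars are medians and filled points are called genes. The median is 2.96 for the feedback and target genes and lies between -0.34 and 0.64 for the other lists, and the called genes are Axin2, Apcdd1, Wif1 and Mmp7.

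Genes with the most similar profile over the 8 epithelial tumours were found as those with the smallest root-mean-square difference in log2(normalized count + 1) after each gene was centred on its own mean, as a description over 14006 other genes. For Axin2 they were S100a9 (0.45), Igf2bp2 (0.76), Tnip3 (0.86) and Irg1 (0.89). S100a9, a calcium-binding protein known from neutrophils and inflamed epidermis, gave 601 normalized counts in MS1210.1, 961 in MS1349.1, 65.4 in MS1166.1 and 4.2 to 47.2 in high AC(NST). Of the other feedback genes the nearest to Axin2 were Lgr5, ranked 23 (1.16), and Tcf7, ranked 50 (1.32), and the farthest was Rnf43, ranked 8252 (2.59).

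For Tcf7 the nearest were Ahr (0.45), Epha4 (0.50), C1qtnf1 (0.50) and Prodh (0.54). Ahr, a ligand-activated transcription factor, gave 11783 normalized counts in MS1210.1, 11314 in MS1349.1, 2615 in MS1166.1 and 1312 to 2337 in high AC(NST). For Lef1 they were Vav3 (0.61), Itm2a (0.62), Adh7 (0.63) and Kcnn3 (0.63), and of the other feedback genes Znrf3 stood nearest, ranked 169 (0.90), while Axin2 ranked 13431 (2.21). The 8 tumours are the same in each of these comparisons. Axin2, Tcf7 and their nearest genes had their highest epithelial values in both ASQC tumours. Lef1 and its nearest genes had theirs in the ASQC tumour MS1349.1 and the high-amplified tumour MS1163.2.

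Several of the 10 genes share a chromosome with the amplified locus. Axin2, Notum, Rnf43, Tcf7 and Znrf3 lie on chromosome 11, as does Erbb2 (98412470 to 98437716, GRCm38), Axin2 at 10.5 Mb from it, Rnf43 at 10.7 Mb, Notum at 22.2 Mb, Tcf7 at 46.1 Mb and Znrf3 at 93 Mb. Copy number was not analysed here.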

How the data were processed

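RNA-seq of 9 mammary tumours was analysed, 1 library per tumour. Per the labels and the study's methods, RNA extracted with Trizol or an RNeasy kit (which one was used is not given per tumour) was depleted of rRNA and made into strand-specific libraries. Reads were aligned to mouse build 38 with STAR under unstranded settings, and uniquely mapped reads were counted on genes with HTSeq-count; its strand option is not given in the sources used here, so reads of a gene and of a gene on the other strand may not be told apart. For every tumour the authors deposited counts, as whole reads per gene. For the 8 epithelial ones they also deposited a signal, these counts over 1 size factor per tumour, called normalized counts here; the sarcoma was scaled by its median-of-ratios factor over all 9 tumours. Depth was 12501225 to 23912429 counts, and limits for a count of 0 were set at 3 counts, which covers counting error only.

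Groups were taken from the labels. The 10 genes and the lists of pathway and marker genes were chosen with earlier results of these data known. Counts were tested with edgeR 4.0.16 (TMM, quasi-likelihood F test, Benjamini-Hochberg adjustment over all tested genes) under R 4.3.3, with genes kept at 10 counts or more in at least 3 of 8 tumours (2 of 5 for parity), and called at an adjusted p under 0.05 with a log2 fold change beyond 1. Amplification was fitted with 2 groups, and ASQC, not/low AC(NST) and high AC(NST) with 3 groups that share 1 estimate of the spread. Exact permutation tests used log2(normalized count + 1) in scipy 1.17.1. The 10 genes are all named; from the lists, genes called in any comparison and the 3 of each list with the smallest unadjusted p for ASQC against high AC(NST), plus Ctnnb1, which was chosen after its values were seen; and the 4 genes nearest in profile to each of Axin2, Tcf7 and Lef1. Alternatives were DESeq2 1.42.0, limma 3.58.1 on log2 values, other filters and scalings, merged or omitted tumours, parity as a covariate, parous tumours alone and the sarcoma included; DESeq2 on the genes past the filter and the permutation test with the same mouse averaged were added after the data were seen. The edgeR script was tested on simulated data. Positions and exon lengths came from GENCODE M21, and promoter windows from RefSeq.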

Additional observations from a re-analysis of the deposited data

Results flagged for a closer look

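Among the 5 high-amplified AC(NST) tumours, MS1163.2 lay far from the others in normalized counts for 2 of the 10 genes. Its Nkd1 level was 263 normalized counts, with the next tumour at 63.9, a gap that took up 0.814 of the range of the group. Its Lef1 level was 108 normalized counts, with the next tumour at 38.5, a gap of 0.721 of the range. A gap above 0.71 of the range was the mark used for a tumour of 5, and 10 genes were examined. Chance alone passes it in about 1 of 20 groups where values are normally distributed. The gaps were taken on normalized counts without a log, so that rate need not hold here. On the log2(normalized count + 1) scale MS1163.2 was at 8.05 for Nkd1, with the next tumour at 6.02 and the lowest at 4.27. For Lef1 these values were 6.77, 5.30 and 3.65. Both gaps were under 0.71 of the range on that scale. MS1163.1, which bears the same mouse number, had 23.1 for Nkd1 and 16.8 for Lef1. Without MS1163.2 the log2 difference between ASQC and high AC(NST) was 4.19 for Nkd1 and 1.43 for Lef1.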

How the results depend on the processing

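For amplification, the number of the 10 genes called was 1 at first, 3 with DESeq2 (also on the genes past the filter; Nkd2 and Lgr6 were given no adjusted p there), and 0 with the 2 tumours of the same mouse added together, with parity as a covariate, in parous tumours only and with the sarcoma included; each tumour left out gave 0 to 1. Calls over all genes, 129 at first, were 1587 with DESeq2, 1485 with DESeq2 on the genes past the filter, 229 without the filter, 210 with limma at a pseudocount of 10, 31 with the same mouse added together, 0 with parity as a covariate and in parous tumours only, 3 with the sarcoma, and 1 (without MS1210.1) to 1255 (without MS1218.2) with a tumour left out. Axin2 then lay between -5.18 and -4.47 where its call was lost with a tumour left out. Its call was also lost at -4.94 with the same mouse added together and at -5.16 with parity as a covariate. The same held at -5.12 in parous tumours only and at -4.65 with the sarcoma included.

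Between ASQC and high AC(NST), 1 of the 10 genes was called at first, 7 with DESeq2, Notum among them, 6 with DESeq2 on the genes past the filter, 5 without the filter (Axin2, Nkd2, Notum, Lgr5 and Tcf7), 2 at a mean count of at least 50 (Axin2 and Notum), 0 in parous tumours only, and 1 to 2 with a tumour left out. Notum enters the counts with DESeq2, without the filter and at a mean count of 50 only through its ASQC counts. Calls over all genes, 101 at first, were 1119 with DESeq2, 1016 on the genes past the filter, 319 without the filter, 179 at a mean count of at least 50, 42 with the same mouse added together, 33 against all AC(NST), 0 in parous tumours only, and 16 (without MS1349.1) to 807 (without MS1218.2) with a tumour left out. Rnf43 turned to 0.03 with the same mouse added together and in parous tumours only and to 0.14 against all AC(NST).

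Between MS1166.1 and high AC(NST), 0 of the 10 genes were called under every alternative run, while calls over all genes, 155 at first, were 1696 with DESeq2, 261 without the filter, 49 with the same mouse added together and 29 to 1246 with a tumour left out; Lgr5 turned to 0.05 without the filter. Between ASQC and MS1166.1, DESeq2 called 3 of the 10 genes and 660 in all, and 7 were called in all without the filter, with 0 to 7 when a tumour was left out. For parity, DESeq2 called 58 genes in all and edgeR without the filter 1.

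With a tumour left out, the log2 fold change changed sign for Lef1 in amplification (-1.03 to 0.88) and in ASQC against high AC(NST) (-0.70 to 1.43), for Rnf43 in the latter (-0.57 to 0.35), for Lgr5 in MS1166.1 against high AC(NST) (-0.32 to 0.40), for Nkd2 in ASQC against MS1166.1 (-0.14 to 2.93), and in parity for Lgr5 (-0.45 to 1.34), Lgr6 (-0.69 to 2.56), Rnf43 (-1.12 to 0.44), Axin2 (-0.86 to 0.07) and Nkd1 (-1.96 to 1.14). A group left with 1 tumour was assumed to vary like the others. The cause of these changes was not tested.

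Median-of-ratios and upper-quartile scaling changed no call among the 10 genes. Averaging the 2 tumours of the same mouse took the permutation p of Axin2, Nkd2, Lgr6 and Tcf7 from 0.0357 to 0.0571, the smallest it then allows. Per kilobase of exon, Lgr5, Notum, Nkd1 and Tcf7 took other ranks in ASQC than by normalized count. Windows of 250 bases before the start gave the same 1 window with a TCF/LEF core. No paired analysis was possible because the labels give no replicate numbers that link tumours of different groups. These comparisons rest on 2 ASQC tumours and 1 not/low AC(NST) tumour, and no alternative at another depth was run.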
